A study of Mus musculus with 6 samples.

Results

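The 10 genes described here mark dendritic cells, the leukocytes that carry antigen to T cells. They are Xcr1, Clec9a, Batf3, Flt3, Zbtb46, Irf8, Cd209a, Itgax, Itgae and Siglech, and they were taken by gene symbol from the 21154 genes with a symbol of their own on the array. Each matched 1 transcript cluster, the set of probes that reads a gene. Their signals come from tumours under the skin of mice, formed by KLN205 (a squamous lung carcinoma line of mouse origin) after injection of 1000000 cells in 50 µL of medium with 100 µL of the basement membrane gel Matrigel. Clariom S Mouse arrays, which read 1 sample each, were hybridised with total RNA of 3 tumours treated with anti-PD-1, an antibody that blocks an inhibitory receptor on T cells (replicates 1, 2 and 3), and of 3 control tumours (replicates 2, 3 and 4). Antibody was given into the peritoneum at 250 µg every 3 days. The sample labels call the controls tumours without anti-PD-1 antibody, while the treatment protocol names an IgG2a isotype antibody, and no source used here gives the strain or age of the mice. The series text speaks of surviving cells after 7 days, while the labels name tumour tissue, and the signals are taken as those of whole tissue, which holds host leukocytes, vessels and fat. The labels do not say whether each tumour came from its own mouse, and the p-values then cover only the spread among these samples, which may be technical.

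Conventional dendritic cells arise from precursors that depend on the growth factor receptor FLT3, and the transcription factor ZBTB46 sets them apart from monocytes and macrophages. Their type 1 branch requires BATF3 and IRF8, takes up dead cells through CLEC9A, responds to the chemokine XCL1 through XCR1 and presents tumour antigen to CD8 T cells. The type 2 branch depends on IRF4 and includes cells with CD209a, and plasmacytoid dendritic cells, which carry SIGLEC-H in mice, secrete type I interferon. Type 1 cells are known from mouse tumour models as the source of T cell priming on which PD-1 blockade draws.

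Values are log2 signals throughout, so that a difference of 1 is a doubling of signal, and differences are anti-PD-1 minus control. Array medians ran between 7.04 and 7.13, and the 3 arrays per group limit the precision. Control replicate 3 stood apart. Its Pearson correlation with the other 5 arrays, across genes, was between 0.907 and 0.936, while those 5 correlated with each other between 0.973 and 0.987. It had the highest signal of the fat hormone gene Adipoq, at 17.32 against 6.53 to 12.76 in the other arrays, and the lowest signal of the basal keratin gene Krt5, at 11.00 against 13.14 to 18.15.

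None of the 10 genes passed the test over all genes (adjusted p under 0.05 by limma with Benjamini-Hochberg adjustment), a threshold that 1 of 21154 genes passed (0.00473%). Of the 10 genes, 8 read lower in anti-PD-1 tumours, against 48.3% of all genes, and their median log2 difference was -0.34, against 0.02 over all genes. The groups did not overlap for 3 of them, Xcr1, Clec9a and Zbtb46, which all read lower in anti-PD-1 tumours, where 7.76% of all genes were lower without overlap. The same 3 genes had an unadjusted p under 0.05, as did 4.52% of all genes in that direction. Clec9a was called expressed in neither group. With only genes called expressed in at least 1 group kept, the unadjusted count was 2, against 1873 of 18045 genes in either direction. Then 2 did not overlap, for which no share of all genes is given, and the median was -0.26. Without control replicate 3 the groups still did not overlap for 3 of the 10 genes, where 11.8% of all genes were lower without overlap, and 8 of the 10 read lower, as did 47.9% of all genes. The unadjusted count was then 1, namely Xcr1, against 4.57% of all genes that were lower. The squamous list (5 genes) read higher for 5 of 5 genes after anti-PD-1, with a median of 3.65, and the fat list (6 genes) lower for 6 of 6, with a median of -3.64. Without control replicate 3 the directions stayed and the medians were 1.82 and -1.23. Their part in the results was not tested.

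The authors' deposited table, whose fold runs as control over anti-PD-1, gives p-values of 0.0159 for Xcr1, 0.0252 for Clec9a and 0.0431 for Zbtb46, and an FDR of 0.509 for the first 2 of them. The p-values of the other 7 genes lie above 0.05 there. For Itgax that table gives averages of 9.88 for anti-PD-1 and 10.33 for control, the opposite direction to the means over the arrays, 9.93 and 9.17. How its averages were formed is not stated, but the control average lies between control replicates 2 and 4, at 10.19 and 10.47. Control replicate 3 read 6.85, and without it the difference over the arrays was -0.40, the direction of that table. In RNA of whole tumour pieces, fewer cells of a type and less RNA per cell cannot be told apart.

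**Figure D1:**
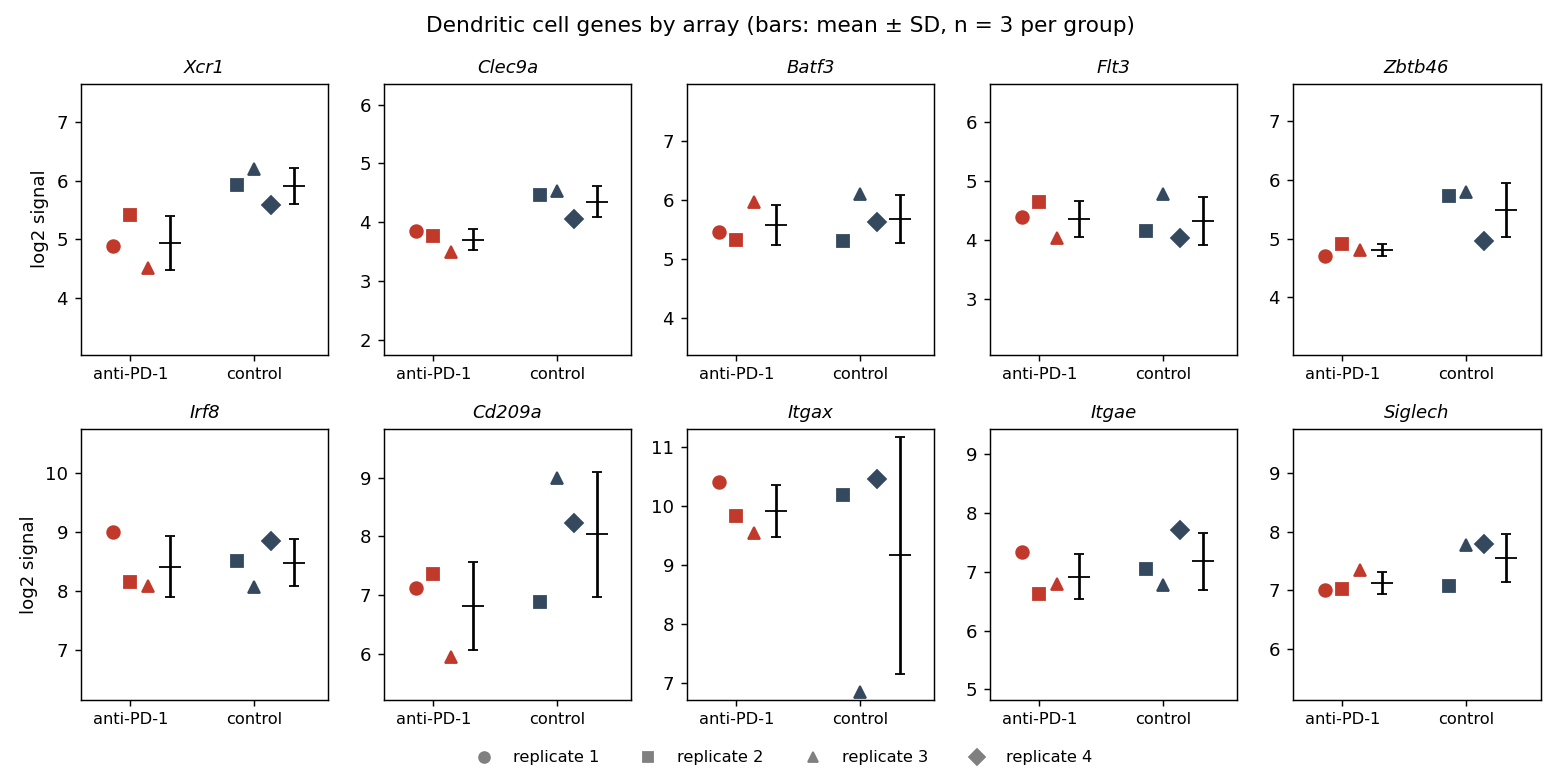
Log2 signal (y axis) of each of the 10 dendritic cell genes in the 3 anti-PD-1 tumours (red) and the 3 control tumours (dark blue), with the replicate number as the marker shape and the mean ± SD beside the points. Each panel spans the same number of log2 units. The groups are apart for Xcr1, Clec9a and Zbtb46, and control replicate 3 lies far below all other arrays for Itgax.

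Xcr1 encodes the chemokine receptor by which type 1 dendritic cells find T cells and natural killer cells that secrete XCL1. Xcr1 lies on the minus strand of chromosome 9 (mm10, 123852315 to 123862029). It read 4.89, 5.42 and 4.51 in anti-PD-1 replicates 1, 2 and 3, against 5.93, 6.19 and 5.58 in control replicates 2, 3 and 4. The highest anti-PD-1 value and the lowest control value were 0.16 apart. The difference was -0.96 ± 0.30 (SE), with an unadjusted p of 0.0160 and an adjusted p of 0.506 by limma. With 1 array left out it lay between -1.20 and -0.745, and the unadjusted p between 0.00722 and 0.0558.

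Clec9a encodes the C-type lectin with which type 1 dendritic cells bind exposed actin of dead cells. It lies on the plus strand of chromosome 6 (129408862 to 129424764). Its signal was 3.85, 3.77 and 3.50 in anti-PD-1 tumours, against 4.47, 4.53 and 4.06 in control tumours. The authors' deposited table calls Clec9a expressed in neither group, as it does for 14.7% of all genes, so that no fold is given. The groups were 0.21 apart, and the unadjusted p was 0.0250 with an adjusted p of 0.506 by limma. Without control replicate 3 the unadjusted p was 0.0601.

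Zbtb46, the transcription factor gene of conventional dendritic cells, lies on the minus strand of chromosome 2 (181387762 to 181459426). It read 4.71, 4.90 and 4.81 in anti-PD-1 tumours, against 5.72, 5.79 and 4.96 in control tumours. Control replicate 4 lay only 0.06 above the highest anti-PD-1 tumour. The difference was -0.68 ± 0.27 (SE), with an unadjusted p of 0.0421 and an adjusted p of 0.508 by limma, and it was -0.53 with an unadjusted p of 0.101 without control replicate 3. Zbtb46 is also expressed in endothelium. All 5 measured genes of a vessel list read lower in anti-PD-1 tumours as well, and their mean signal ran from 8.21 to 9.15 there, against 9.44 to 11.47 in control tumours. Cdh5, the cadherin of vessels, differed by -1.51. The part of vessels in the Zbtb46 signal was not tested.

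Sequences before an annotated start site of these 3 genes are shown because only their signals kept the groups apart. The sequences are the 250 bases before the RefSeq start site (GRCm38.p6), read 5′ to 3′ on the gene's strand, with matches to the searched motifs in capitals. The windows are chr9:123862030-123862279 for Xcr1, chr6:129408612-129408861 for Clec9a and chr2:181424389-181424638 for Zbtb46. The start site used for Zbtb46 lies inside the span that the array annotation gives the gene, whose upstream end is 181459426. Its window may therefore lie within the gene and not at its promoter.
Xcr1: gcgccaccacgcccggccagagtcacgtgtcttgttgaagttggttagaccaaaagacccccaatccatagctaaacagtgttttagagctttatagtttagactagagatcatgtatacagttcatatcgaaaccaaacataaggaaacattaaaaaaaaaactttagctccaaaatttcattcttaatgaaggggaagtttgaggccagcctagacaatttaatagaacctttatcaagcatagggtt
Clec9a: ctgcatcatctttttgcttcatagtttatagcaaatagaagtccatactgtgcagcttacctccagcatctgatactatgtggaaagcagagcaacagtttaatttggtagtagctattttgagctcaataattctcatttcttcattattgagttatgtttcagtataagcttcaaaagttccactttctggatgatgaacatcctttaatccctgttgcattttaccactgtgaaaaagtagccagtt
Zbtb46: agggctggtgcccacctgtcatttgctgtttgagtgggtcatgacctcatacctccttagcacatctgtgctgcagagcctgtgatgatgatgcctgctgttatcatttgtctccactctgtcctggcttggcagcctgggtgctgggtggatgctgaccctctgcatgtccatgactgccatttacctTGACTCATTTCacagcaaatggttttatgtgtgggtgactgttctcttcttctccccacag
Motifs of the factors that act in dendritic cells were searched on both strands. A window existed for 9 of the 10 genes, and Irf8 had a pair of start sites, which made 10 windows. The AP-1 type site TGANTCA, the kind of site that BATF family dimers with JUN bind, was found in 2 of them, those of Zbtb46 and Itgax, and in 6.75% of 32851 windows of mouse genes. The composite of an IRF and a BATF site, GAAA joined directly to TGANTCA and so overlapping the AP-1 type site, was found in that of Zbtb46, on the opposite strand and at positions -61 to -51 from the start site, and in 0.1% of all windows. The interferon response core (GAAA, any 2 bases, GAAA) and the ETS-IRF composite (GGAA, any 2 bases, GAAA) were in 0 of the 10 windows, and in 2.98% and 2.3% of all windows. The motifs were chosen after the sequences had been read, and a match describes letters, not binding. As the Zbtb46 window may not be a promoter, its matches are not read as promoter sites.

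Batf3 and Irf8, the transcription factor pair of the type 1 branch, did not separate the groups. Batf3 lies on the plus strand of chromosome 1 (191097880 to 191108947) and Irf8 on that of chromosome 8 (120736358 to 120756694). Batf3 read 5.46, 5.33 and 5.97 in anti-PD-1 tumours, against 5.30, 6.11 and 5.63 in control tumours, a difference of -0.09 ± 0.29 (SE). The groups interleave, and the sign turned without control replicate 3, to 0.12. Irf8, which B cells, monocytes and macrophages also express and interferon gamma induces, read 9.01, 8.16 and 8.09 in anti-PD-1 tumours, against 8.52, 8.07 and 8.86 in control tumours. Its highest value was that of anti-PD-1 replicate 1 and its lowest that of control replicate 3, and the difference was -0.06 ± 0.34 (SE). The adjusted p by limma was 0.921 for Batf3 and 0.953 for Irf8.

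Itgae encodes the alpha E integrin CD103, carried by type 1 dendritic cells of tissues and by tissue-resident T cells, and lies on the plus strand of chromosome 11 (73090583 to 73147449). It read 7.34, 6.62 and 6.79 in anti-PD-1 tumours, against 7.04, 6.78 and 7.71 in control tumours. Control replicate 4 was highest and anti-PD-1 replicate 2 lowest. The difference was -0.26 ± 0.32 (SE) at an adjusted p of 0.773 by limma. Without control replicate 4 it was 0.0067. The T cell list (8 genes) ranked control replicate 4 highest too, with a mean signal of 8.48, against 6.92 to 7.60 in anti-PD-1 tumours and 6.88 and 7.51 in control replicates 3 and 2. The part of T cells in the Itgae signal was not tested.

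Flt3, the growth factor receptor gene of dendritic cell precursors, lies on the minus strand of chromosome 5 (147330741 to 147400489). Flt3 gave 4.40, 4.65 and 4.03 in anti-PD-1 tumours, against 4.15, 4.79 and 4.04 in control tumours. The groups covered almost the same range, and the difference was 0.03 ± 0.29 (SE) with an adjusted p of 0.971 by limma. Leaving out 1 array moved it between -0.11 and 0.265.

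Itgax encodes CD11c, the integrin of dendritic cells that many macrophages also carry, and lies on the plus strand of chromosome 7 (128129547 to 128150657). It read 10.41, 9.83 and 9.54 in anti-PD-1 tumours, against 10.19, 6.85 and 10.47 in control tumours. Control replicate 3 alone lay below the rest, and the other 5 arrays lay between 9.54 and 10.47. The difference of 0.76 ± 0.93 (SE) had an adjusted p of 0.770 by limma and turned to -0.40 without that array. In the same array the leukocyte list (8 genes) had its lowest mean signal, 11.38, against 11.56 to 12.94 in the others.

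Cd209a encodes a DC-SIGN type lectin found on type 2 and monocyte-derived dendritic cells, and lies on the minus strand of chromosome 8 (3743395 to 3748984). Its difference was -1.22 ± 0.60 (SE), and the groups overlapped. Cd209a read 7.13, 7.36 and 5.96 in anti-PD-1 tumours, against 6.89, 8.99 and 8.22 in control tumours. Control replicate 2 lay below anti-PD-1 replicates 1 and 2. The unadjusted p was 0.0844 and the adjusted p 0.540 by limma, and without control replicate 3 the difference was -0.74 with an unadjusted p of 0.203.

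Siglech, the sialic acid binding lectin gene of mouse plasmacytoid dendritic cells, lies on the plus strand of chromosome 7 (55768178 to 55778925). Siglech read 7.01, 7.02 and 7.35 in anti-PD-1 tumours, against 7.08, 7.78 and 7.79 in control tumours. Control replicates 3 and 4 were highest, and control replicate 2 lay among the anti-PD-1 tumours. The difference was -0.42 ± 0.27 (SE) with an adjusted p of 0.580 by limma.

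**Figure D2:**
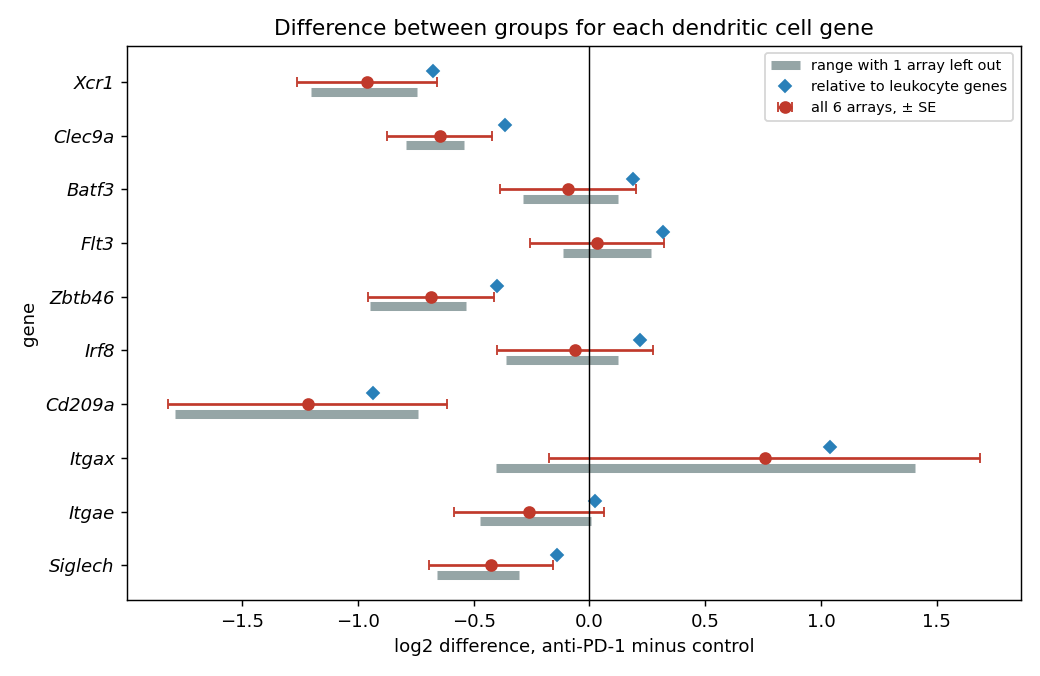
Log2 difference, anti-PD-1 minus control (x axis), of each gene (y axis) over all 6 arrays with its SE (red), its range when 1 array was left out (grey bar) and its value relative to leukocyte genes (blue diamond). Clec9a was called expressed in neither group, so that its size is not interpreted. Xcr1, Clec9a, Zbtb46, Cd209a and Siglech keep negative values throughout, and the bars of Batf3, Flt3, Irf8, Itgax and Itgae cross 0.

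The tumours also differed in how much leukocyte signal they held. The mean log2 signal of 8 general leukocyte genes ran from 11.56 to 12.36 in anti-PD-1 tumours and from 11.38 to 12.94 in control tumours, with control replicate 4 highest and control replicate 3 lowest. Of these genes 7 read lower after anti-PD-1, with a median difference of -0.36 (8 of 8 and -0.69 without control replicate 3), and Ptprc, which encodes CD45, differed by -0.74. When each array was centred on these leukocyte genes, which moved the median of all genes to 0.30, the groups overlapped for each of the 10 genes and 5 of the 10 read lower, against 23.4% of all genes. Centred in this way, 7.95% of all genes did not overlap (0.771% were lower without overlap), and 0 of the 10 genes had an unadjusted p under 0.05 by limma, against 5.71% of all genes. On this scale Xcr1 differed by -0.68, Zbtb46 by -0.40 and Cd209a by -0.93, while Itgax differed by 1.04. The SE was 0.69 for every gene, against 0.30 for Xcr1, 0.23 for Clec9a and 0.27 for Zbtb46 without centring. These 3 are then called less readily, so that the loss of their calls is no result about them. The part of the overall leukocyte signal in these results was not tested otherwise.

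Among 12 other measured genes of the type 1 branch, 8 read lower after anti-PD-1, with a median of -0.495, and 1 of them had an unadjusted p under 0.05, against 4.52% of all genes in that direction. This was Wdfy4, which type 1 cells need for cross-presentation. Wdfy4 read 6.29, 5.72 and 5.60 in anti-PD-1 tumours, against 6.78, 6.60 and 7.10 in control tumours, so that the groups did not overlap. Its difference was -0.96 ± 0.27 (SE) with an adjusted p of 0.506 by limma, and -1.07 without control replicate 3. Tlr11, a receptor for parasite profilin, was called expressed only in control tumours, where its mean was at least 1.54-fold higher than in anti-PD-1 tumours, and a value of 4.08 occurred in both groups. This ratio equals that of the group means, as each dim value lay above the lowest signal called expressed on its array. It is no bound on the spread among tumours, and without control replicate 3 the log2 difference of Tlr11 was -0.39. Cadm1, an adhesion molecule that epithelial cells also express, went the other way at 1.25, and at 0.65 without control replicate 3. Cd24a, which is expressed in many cell types, differed by -1.77 and by -0.67 without control replicate 3, where it read 13.04 against 8.40 to 10.11 in the other arrays. Relative to leukocyte genes 7 of the 12 read lower, against 23.4% of all genes, with a median of -0.21. On that scale 1 lower and 1 higher had an unadjusted p under 0.05 by limma, against 5.71% of all genes in either direction.

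Genes of the type 2 branch read mostly lower. Of 13 measured, 11 read lower after anti-PD-1, with a median of -0.68, and 6 of them did so without overlap and with an unadjusted p under 0.05, against 7.76% and 4.52% of all genes. None passed the adjusted threshold. Without control replicate 3 the count at unadjusted p was 4, against 4.57% of all genes, and 6 did not overlap. Relative to leukocyte genes both counts were 3, against 1.66% and 0.771% of all genes. Irf4, the transcription factor of this branch that plasma cells and T cells also use, gave 5.07, 4.60 and 4.63 in anti-PD-1 tumours, against 6.07, 7.18 and 6.46 in control tumours. Its groups were well apart, at a difference of -1.80 ± 0.33 (SE), and the adjusted p by limma was 0.506. The lectin genes Mgl2 and Clec10a, which alternatively activated macrophages also express, differed by -2.31 and -1.99, and by -1.90 and -1.59 without control replicate 3. Tnip3, an inhibitor of NF-kB signalling, differed by -0.61, with signals between 9.76 and 9.89 in anti-PD-1 tumours against 10.33 to 10.60 in control tumours. Klf4, which keratinocytes also express, was the exception without overlap, at 0.91, where 8.82% of all genes were higher without overlap. The mean signal of 12 macrophage genes ran from 10.93 to 11.77 in anti-PD-1 tumours and from 11.51 to 12.47 in control tumours, and 10 of the 12 read lower in anti-PD-1 tumours, among them Adgre1, a surface receptor gene of mouse macrophages, at -1.20. The part of macrophages in the type 2 genes was not tested.

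Genes of plasmacytoid dendritic cells were divided. Of 16 measured, 9 read lower and 7 read higher after anti-PD-1, with a median of -0.09, and 2 had an unadjusted p under 0.05, both lower and without overlap, where 4.52% and 7.76% of all genes were so. Without control replicate 3 the counts were 4 and 5, against 4.57% and 11.8%. Relative to leukocyte genes 7 read lower and 9 higher, where 23.4% of all genes read lower. The median was 0.19, below the 0.30 of all genes on that scale. On that scale 3 had an unadjusted p under 0.05, all higher, against 5.71% of all genes in either direction. Without overlap 1 was lower and 3 were higher, against 7.95% in either direction. Irf7 differed by 2.36 there and was among 283 genes past the adjusted threshold (adjusted p 0.0482 by limma), with the same standard error for every gene. Without this centring Irf7 differed by 2.08 with overlap, and by 0.53 without control replicate 3. Pacsin1, an endocytic adaptor gene, read 4.08, 4.13 and 4.18 in anti-PD-1 tumours, where it was not called expressed, against 5.42, 4.66 and 4.66 in control tumours, at least 1.72-fold higher, again the ratio of the group means. Tcf4, which encodes the lineage factor E2-2 and is also expressed in stromal cells, differed by -1.38, and by -0.88 without control replicate 3, where it read 15.92. Tlr7, a receptor for single-stranded RNA, differed by -0.57. Bst2, which interferon induces in many cells, differed by 1.73, and by 1.00 without control replicate 3. Bst2 read 9.46 in that array, against 11.52 to 13.60 in the other arrays.

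**Figure D3:**
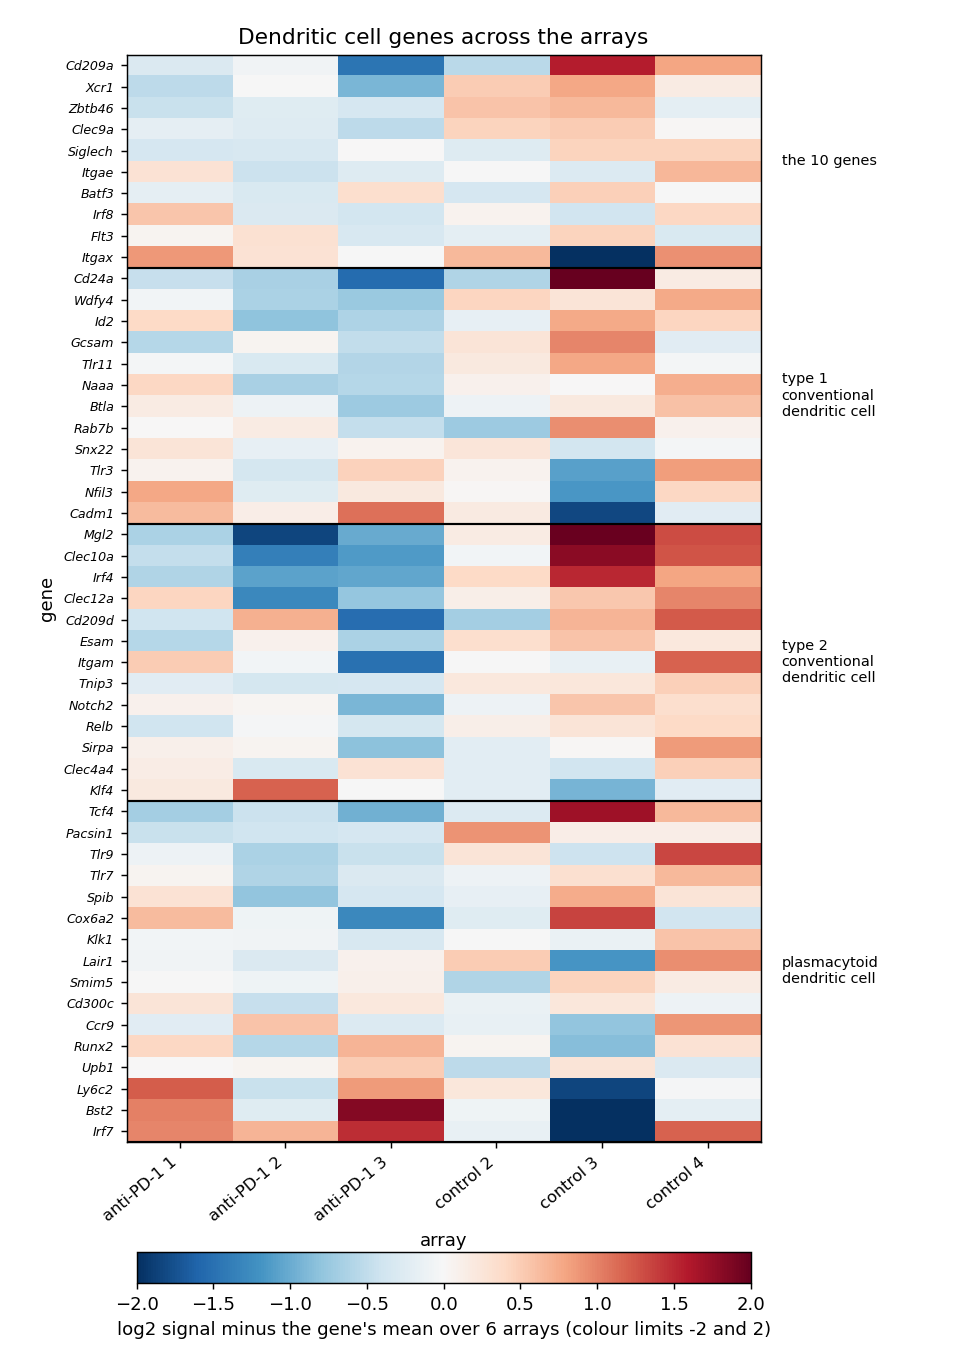
Log2 signal minus each gene's mean over the 6 arrays (colour, blue low and red high, limits -2 and 2) for the 10 genes and the other measured genes of the type 1, type 2 and plasmacytoid lists (rows, sorted by difference within each block), with anti-PD-1 arrays left of control arrays. Control replicate 3 is dark blue for Itgax and Bst2 and dark red for Cd24a, and Irf4, Mgl2 and Clec10a are blue in all 3 anti-PD-1 arrays.

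Genes shared by dendritic cells and their precursors read lower in 10 of 11 cases, against 48.3% of all genes, with a median of -0.68. Of these, 2 had an unadjusted p under 0.05 and 3 did not overlap, against 4.52% and 7.76% of all genes that were lower. Relative to leukocyte genes 8 of the 11 read lower, against 23.4% of all genes, with a median of -0.40. Ikzf1, the lymphoid and myeloid factor Ikaros, read 9.50, 9.27 and 8.95 in anti-PD-1 tumours, against 10.10, 10.48 and 11.00 in control tumours. This difference, -1.29 ± 0.29 (SE), was the one with the smallest p of the list, and its adjusted p by limma was 0.506. Dpp4, the peptidase CD26 that type 1 cells and fibroblasts carry, differed by -2.15, also without overlap. Csf2ra, a chain of the GM-CSF receptor, differed by -0.58. Kit, the receptor of progenitors and mast cells, differed by -2.75, and by -1.03 without control replicate 3, where it read 14.35.

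Genes of mature, migrating dendritic cells read lower in 10 of 15 cases, against 48.3% of all genes, and higher in 5, with a median of -0.42. An unadjusted p under 0.05 was found for 4, all lower, against 4.52% of all genes in that direction. Without overlap 2 were lower and 1, Fscn1, was higher, against 7.76% and 8.82% of all genes. Fscn1 differed by 1.41, and by 0.33 without control replicate 3. Ccr7, the receptor that guides mature dendritic cells and naive T cells to lymph nodes, read 7.65, 7.95 and 7.83 in anti-PD-1 tumours, against 8.62, 8.53 and 9.41 in control tumours. The groups did not overlap, and the difference was -1.04 ± 0.29 (SE) with an adjusted p of 0.506 by limma. Ccl22 and Ccl17, chemokines for CCR4 on regulatory and helper T cells, differed by -2.94 and -2.43, and by -3.92 and -3.52 without control replicate 3. Without that array Ccl17 passed the adjusted threshold (adjusted p 0.0422 by limma), as did 0.0189% of all genes. With 1 array left out, Ccl22 ran from -3.92 to -1.83 and Ccl17 from -3.52 to -1.76. Socs2, a feedback inhibitor of cytokine signalling, differed by -0.95 with overlap. Without control replicate 3 the counts with an unadjusted p under 0.05 in the direction of lower signal were 6 of the 15 mature genes and 7 of the 11 shared genes, against 4.57% of all genes. Relative to leukocyte genes 8 of the 15 mature genes read lower, against 23.4% of all genes, with a median of -0.14. On that scale 2 lower and 1 higher had an unadjusted p under 0.05 by limma, against 5.71% of all genes in either direction. Without overlap 4 were lower and 3 higher there, against 7.95% in either direction.

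**Figure D4:**
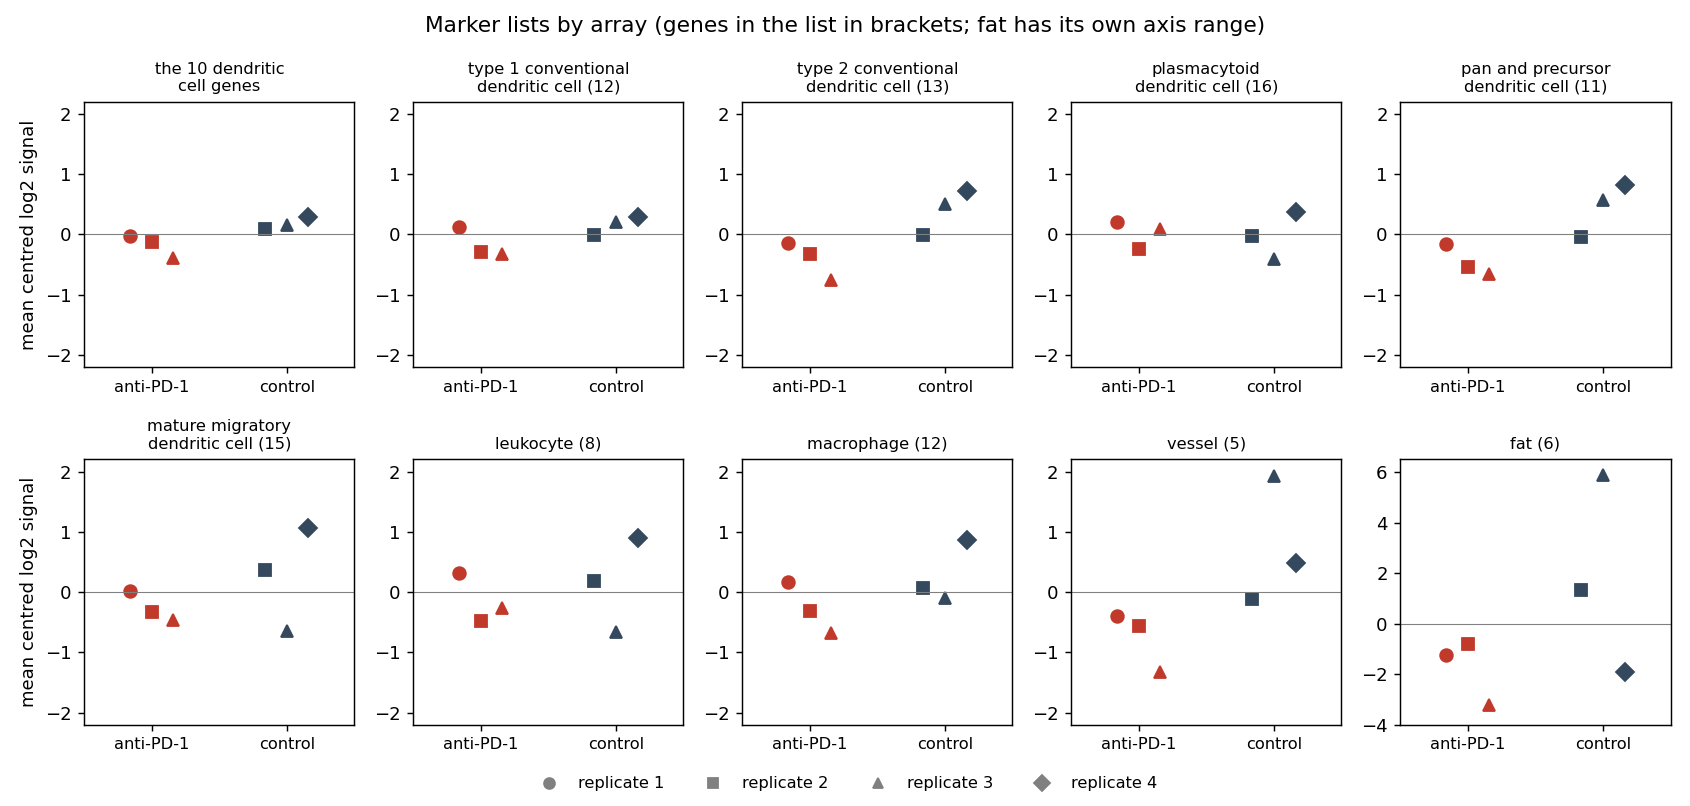
Mean over each list of log2 signals centred on the gene's mean (y axis) in the anti-PD-1 arrays (red) and the control arrays (dark blue), with the number of genes in brackets and the replicate number as the marker shape. The type 2 and the pan and precursor lists lie lower in the 3 anti-PD-1 arrays than in the 3 control arrays, the plasmacytoid and leukocyte lists overlap, and the fat list of control replicate 3 reaches 5.87 on an axis of its own.

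Signals that recruit or sustain dendritic cells showed no difference past the adjusted threshold, and 0 of 11 genes had an unadjusted p under 0.05 by limma, against 9.7% of all genes. Flt3l, the ligand of FLT3, read 6.16, 6.61 and 5.35 in anti-PD-1 tumours, against 6.60, 6.91 and 6.90 in control tumours. It differed by -0.76 ± 0.34 (SE), with overlap by a margin of 0.01, as anti-PD-1 replicate 2 lay just above control replicate 2. Xcl1, the ligand of XCR1, differed by -0.27, with a range of -0.68 to 0.26 when 1 array was left out, and read highest in control replicate 4, at 7.02, against 5.15 to 5.94 in the other arrays. Ccl20, which attracts CCR6-bearing dendritic cells to epithelia, differed by 0.43. Its groups were only 0.01 apart, at an adjusted p of 0.542 by limma, where 8.82% of all genes were higher without overlap. The growth factors Csf2 and Csf1 differed by 0.43 and -0.59, and by 0.03 and -0.925 without control replicate 3, where Csf1 was the 1 gene of the 11 with an unadjusted p under 0.05 (0.00488 by limma). Il34 differed by -0.04, and the type I interferon genes Ifna2 and Ifnb1 by -0.03 and -0.13, and each turned sign when 1 array was left out. Cd207, which encodes langerin of Langerhans cells, read 5.0, 5.78 and 5.15 in anti-PD-1 tumours, against 4.46, 4.72 and 4.79 in control tumours. It differed by 0.65 ± 0.27 (SE) without overlap, again against 8.82% of all genes, at an adjusted p of 0.512 by limma.

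The 10 genes did not share a single pattern over the arrays. Likeness was measured as the root mean square difference between log2 signals over the 6 arrays, each gene centred on its mean. The closest pair among the 10 was Irf8 and Itgae, at 0.175. Itgae ranked 42 among all genes by closeness to Irf8, and Irf8 ranked 73 by closeness to Itgae. Zbtb46 lay 0.18 from Clec9a, Batf3 lay 0.24 from Siglech, and Xcr1 lay 0.27 from Clec9a and 0.30 from Zbtb46. Clec9a ranked 61 by closeness to Zbtb46, and Zbtb46 ranked 135 the other way. Siglech ranked 994 by closeness to Batf3, and Batf3 800 the other way. By closeness to Xcr1, Clec9a ranked 105 and Zbtb46 216, while Xcr1 ranked 974 and 908 by closeness to them. Among 18967 genes, with predicted ones left out, those nearest to Xcr1 were Abi2, Elfn1 and Pcmtd2, at 0.14 to 0.15. Nearest to Clec9a were Magee1, Lin7a and Atp11a, at 0.09 to 0.10, and nearest to Flt3 were Olfr235, Sh3tc2 and Tm4sf4, at 0.08 to 0.09. Itpripl1, Siglec1 and Zfp423 were nearest to Cd209a, at 0.13 to 0.18, and Il17rb, Ldb1 and Ptrf to Siglech, at 0.05 to 0.08. No other of the 10 genes was among the nearest 3 of these 5 genes.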

How the data were processed

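The deposited values are log2 signals of transcript clusters, which the authors obtained by SST-RMA from Clariom S Mouse arrays annotated on mm10, per the file headers. Transcriptome Analysis Console (no version given) was used, per the submitters' processing notes. Labelling used 250 ng of RNA, per the labels' protocols. The authors' deposited table adds log2 group averages, expressed calls for each group, a fold (a score signed as control over anti-PD-1, against the direction used here) and p-values with FDR, per the file headers. No source used here states the test behind them. A further deposited table held the same log2 signals, with 0 differing values.

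Of 22206 clusters, 836 with several gene names and 3 with none were left out. Where several clusters shared a gene (132 genes) the brightest was kept, which left 21154 genes, with no filter on dim signals. Groups come from the sample titles. The fit used limma 3.58.1 (lmFit, eBayes; R 4.3.3) on all 6 arrays, and p-values are two-sided, adjusted by Benjamini-Hochberg across the 21154 genes and read at 0.05. It was tested on simulated data. Exact permutation was not used, since 3 against 3 arrays allow no two-sided p below 0.1.

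The members and marker lists were chosen with earlier results of these data known. From each list at most the 4 genes with the smallest unadjusted p are named, and most of the ligand list, of which some results are not reported here. Klf4, Irf7 and Fscn1 were named beside these and chosen after their values were seen. Genes listed but without a cluster of their own name were Ifi205, Septin3, Zeb2, Cd74, Il4i1, Klra8, Egfl7 and Krt6a. Where a gene was called expressed in only 1 group, the fold is a bound against the lowest signal called expressed, or the dim signal itself where that was higher. Promoter windows (RefSeq, GRCm38.p6) were matched by symbol. Alternatives were other normalizations, filters and fits, a replicate block and each array left out.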

Additional observations from a re-analysis of the deposited data

How the results depend on the processing

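No alternative brought any of the 10 genes past the adjusted threshold. The lowest adjusted p for any of them under any alternative was 0.225, for Cd209a. Xcr1, Clec9a, Zbtb46, Cd209a and Siglech kept their direction under all alternatives run for them, and the range was -1.20 to -0.68 for Xcr1, -0.95 to -0.40 for Zbtb46, -1.79 to -0.74 for Cd209a and -0.66 to -0.14 for Siglech. The filter on clusters called expressed removed Clec9a.

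Centring on leukocyte genes gave 0 of the 10 genes at unadjusted p under 0.05 by limma and 0 without overlap. Their median was -0.058, against 0.30 over all genes. The same centring gave 1207 genes at unadjusted p under 0.05 and 283 past the adjusted threshold, as limma then gave every gene the same standard error. That error, 0.69, was larger than those of Xcr1, Clec9a and Zbtb46 without centring, so that the loss of their calls is no result about them. Batf3, Irf8 and Itgae turned sign there, to 0.19, 0.22 and 0.023, all below the median of all genes. Quantile normalization and median centring gave 0 genes past the adjusted threshold and left the 3 of 10 at unadjusted p under 0.05. The fit with the replicate number as a block gave 0 genes past the adjusted threshold. It gave 696 genes at unadjusted p under 0.05, with 0 of the 10 genes among them, and Flt3 turned to -0.13. An array without a same-numbered array in the other group adds nothing to the difference in this fit. The difference therefore rests only on replicates 2 and 3 of each group. Blocking and the loss of the other arrays were not tested apart. Deviations of same-numbered arrays from their group means correlated at -0.20 and -0.19 across genes, so that the numbers were not taken as pairs.

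With 1 array left out, 0 to 4 genes passed the adjusted threshold and 1051 to 3164 had an unadjusted p under 0.05. Of the 10 genes, 0 to 3 had an unadjusted p under 0.05, the count being 0 when anti-PD-1 replicate 3 was left out, 1 for anti-PD-1 replicate 2 and 1 for control replicate 3. Between 3 and 5 did not overlap, and their median ran from -0.45 to -0.21. The 5 came without control replicate 2, the fit with 3164 genes at unadjusted p under 0.05. Of these fits, a share of all genes without overlap is given only without control replicate 3, so that the 5 cannot be weighed. Over these fits Batf3 ran from -0.285 to 0.12, Flt3 from -0.11 to 0.265, Irf8 from -0.36 to 0.125, Itgax from -0.40 to 1.41 and Itgae from -0.47 to 0.0067, so that each turned sign. Itgax did so without control replicate 3, and Itgae without control replicate 4. The cause of these shifts was not tested.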
